A study of Mus musculus with 4 samples.

Results

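The metallothioneins, their zinc-sensing regulator and the main zinc exporter of the cell surface were examined: Mt1, Mt2, Mt3, Mt4, Mtf1 and Slc30a1, 6 genes of the 22138 in the table. They were taken by gene symbol, and the set was chosen by a rule written with the RPKM values of these 4 libraries, control against Hnrnpk siRNA, in view. Their differences between the groups are therefore given as a description, with SD and SE but without a test. The libraries came from TT2, a female mouse embryonic stem cell line of the strain C57BL/6xCBA, kept without feeders in medium with serum and LIF. One group received control siRNA (siCTRL, n = 2) and the other siRNA against Hnrnpk (siHnrnpk, n = 2), at 100 nM and, 24 hours later, again at 50 nM; RNA was taken about 72 hours after the second dose. Both groups were the same line, so all results stand for 1 cell line and for partial depletion, not for loss of the gene. The labels call the replicates biological but do not say what was separate between them, so the spread between 2 libraries may be partly technical. Hnrnpk encodes hnRNP K, a protein that binds RNA and DNA, and the series' title ties it to gene silencing by the histone methyltransferase SETDB1. The comparison asks which transcripts differ when it is depleted.

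Metallothioneins are small, cysteine-rich proteins that hold zinc and copper ions in clusters of thiolates, and so buffer free metal and scavenge oxidants. Mt1 and Mt2 are made in most tissues and are induced by metals, glucocorticoids and stress; Mt3 is best known from the brain and Mt4 from stratified squamous epithelium. MTF1, the product of Mtf1, is a zinc-finger transcription factor that binds metal response elements when zinc is plentiful, and its best-known targets are Mt1, Mt2 and Slc30a1. Slc30a1 encodes ZnT1, which moves zinc out of the cell.

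The core of the metal response element was looked for near the start of each gene, because Mt1, Mt2 and Slc30a1 were the 3 genes of the group with higher values after Hnrnpk siRNA. The windows run from 250 bases before to 50 bases after the transcript start, and come from RefSeq on GRCm38.p6, which held a window for all 6 genes. They are shown 5′ to 3′ on the plus strand, with matches to the core, TGCACNC or TGCGCNC on either strand, in capitals (overlaps between matches would have been counted separately; none occurred). The Mt1 window is chr8:94178839-94179138, the Mt2 window chr8:94172368-94172667, the Mt3 window chr8:94152357-94152656 and the Slc30a1 window chr1:191906531-191906830.
Mt1: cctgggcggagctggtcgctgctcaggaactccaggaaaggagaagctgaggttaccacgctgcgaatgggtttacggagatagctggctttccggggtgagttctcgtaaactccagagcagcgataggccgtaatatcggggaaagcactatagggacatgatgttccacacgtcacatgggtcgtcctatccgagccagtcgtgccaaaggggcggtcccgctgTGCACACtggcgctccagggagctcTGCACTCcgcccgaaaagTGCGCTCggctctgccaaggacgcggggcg
Mt2: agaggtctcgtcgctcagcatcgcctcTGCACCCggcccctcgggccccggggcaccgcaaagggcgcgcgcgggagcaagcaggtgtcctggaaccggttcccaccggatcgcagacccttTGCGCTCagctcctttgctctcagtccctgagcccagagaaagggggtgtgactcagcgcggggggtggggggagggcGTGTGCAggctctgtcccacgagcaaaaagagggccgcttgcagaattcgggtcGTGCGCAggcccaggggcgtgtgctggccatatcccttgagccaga
Mt3: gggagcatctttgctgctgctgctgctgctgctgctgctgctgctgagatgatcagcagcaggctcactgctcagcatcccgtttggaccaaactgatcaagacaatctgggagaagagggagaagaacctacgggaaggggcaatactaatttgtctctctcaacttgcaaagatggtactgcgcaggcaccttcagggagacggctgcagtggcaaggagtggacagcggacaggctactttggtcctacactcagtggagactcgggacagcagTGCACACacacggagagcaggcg
Slc30a1: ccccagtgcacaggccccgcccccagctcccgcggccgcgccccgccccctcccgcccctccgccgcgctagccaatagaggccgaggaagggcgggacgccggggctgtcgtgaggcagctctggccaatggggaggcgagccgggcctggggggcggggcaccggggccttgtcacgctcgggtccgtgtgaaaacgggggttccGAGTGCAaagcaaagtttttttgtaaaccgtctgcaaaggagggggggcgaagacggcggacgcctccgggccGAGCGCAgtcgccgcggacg
Mt2 held 4 matches, Mt1 3 and Slc30a1 2, while Mt3 and Mt4 held 1 each and Mtf1 none. Of the 32817 windows of this length in the RefSeq table, 25.7% held at least 1 match, 7.12% at least 2, 1.97% at least 3 and 0.518% as many as Mt2. The windows of these genes were also richer in G and C than most, against a median of 52.7%. The values were 60.7% for Mt1, 67.7% for Mt2, 56.0% for Mt3, 60.3% for Mt4, 66.3% for Mtf1 and 73.0% for Slc30a1. A match is a run of letters, not a measured binding site. Mt1, Mt2 and Slc30a1 are the best-known targets of MTF1, so more matches near their starts could be foreseen from that alone. The counts therefore say nothing on why these genes were higher, and a part of MTF1 was not tested. Of the 3 Mt1 transcripts in GENCODE M21, 2 start after the end of this window, up to 152 bases downstream of the RefSeq start, so the bases just before those starts were not searched. The same holds for 1 of 2 Mt2 transcripts, 2 of 3 Mt3 transcripts and 1 of 2 Slc30a1 transcripts.

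**Figure D1:**
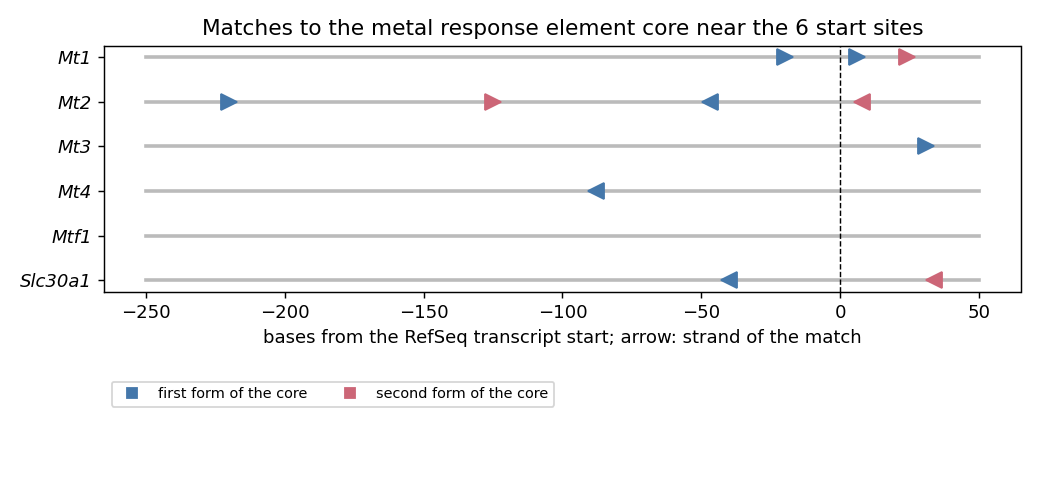
Matches to the 2 forms of the metal response element core (TGCACNC, first form; TGCGCNC, second form) in bases from the RefSeq transcript start. Each grey line is a window of 300 bases and each arrowhead points along the strand of the match; the lines for Mt1 and Mt2 carry 3 and 4 matches and the line for Mtf1 carries none.

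The targeted gene was lower in both libraries of its group. Hnrnpk was at 236 and 226 RPKM with control siRNA, against 68.0 and 70.5 RPKM with Hnrnpk siRNA (RPKM is reads per kilobase of transcript, scaled to the size of the library, so it sets genes of different length on 1 scale). The RPKM values of the table summed to between 359659 and 390467 per library. The depth of the Hnrnpk siRNA libraries, read from the spacing of the lowest values, was 0.891 and 0.882 of that of control replicate 1, and that of control replicate 2 was 0.982. The 8 embryonic stem cell markers examined (Pou5f1, Sox2, Nanog, Zfp42, Esrrb, Dppa5a, Tdgf1 and Utf1) summed to 3788 to 3908 RPKM in the control libraries and to 4554 to 4880 RPKM after Hnrnpk siRNA. The higher sum rests on Dppa5a, at 1298 and 2308 RPKM (group means). Limma called 2 of the 8 markers higher (Dppa5a and Nanog) and 3 lower (Sox2, Tdgf1 and Utf1), with a median log2 change of -0.063. Over all genes tested 32.2% were called higher and 35.0% lower, 67.2% together, so nothing is read from the marker calls. No batch is named in the labels.

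Mt1 and Mt2, the inducible metallothioneins, were among the most abundant transcripts and were higher after Hnrnpk siRNA. Mt1 (ENSMUSG00000031765) was at 521 and 627 RPKM in control replicates 1 and 2 and at 978 and 944 RPKM in Hnrnpk siRNA replicates 1 and 2. The groups did not overlap, and the means were 574 ± 75.4 and 961 ± 24.5 RPKM (SD, n = 2 per group), a ratio of 1.67. Mt2 (ENSMUSG00000031762) was at 781 and 1185 RPKM with control siRNA, against 1817 and 1658 RPKM with Hnrnpk siRNA. Here too both Hnrnpk siRNA libraries lay above both controls, with means of 983 ± 286 and 1738 ± 113 RPKM (SD, n = 2 per group), a ratio of 1.77. On the scale of log2(RPKM + 0.5), used for all log2 changes here, Mt1 differed by 0.75 (SE 0.0955) and Mt2 by 0.85 (SE 0.162). By level, Mt2 ranked 22 and 15 among all genes of the control libraries and 7 and 10 of the Hnrnpk siRNA libraries. In a bulk sample, a change in the number of cells with a transcript and a change in its amount per cell cannot be told apart.

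The size of these differences depended on which control library was used. Control replicate 2 lay above control replicate 1 by 0.60 on the log2 scale for Mt2, a gap wider than that of 99.5% of the 12486 genes fitted, those whose mean reached 0.5 RPKM. For Mt1 the gap was 0.27, wider than in 91.4% of genes. Between the Hnrnpk siRNA libraries the gaps were -0.13 for Mt2 and -0.052 for Mt1. Without control replicate 1 the Mt2 log2 change was 0.55, and without control replicate 2 it was 1.15; the Mt1 values were 0.62 and 0.88. Quantile normalization, which forces all libraries to 1 distribution, gave 0.49 for Mt1 and 0.52 for Mt2. Mt1 and Mt2 were higher after Hnrnpk siRNA under every alternative tried.

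Mt3, the brain metallothionein, went the other way by a wider margin. Mt3 (ENSMUSG00000031760) was at 47.0 and 44.5 RPKM with control siRNA, against 9.82 and 10.5 RPKM with Hnrnpk siRNA. The lowest control value was thus over 4 times the highest value after Hnrnpk siRNA, and the replicates of each group lay close together. The means were 45.8 ± 1.73 and 10.2 ± 0.508 RPKM (SD, n = 2 per group), a control level 4.50 times as high, with a log2 change of -2.12 (SE 0.0684). Of the 12486 genes fitted, 5 had a lower log2 change than Mt3. Leaving out 1 library at a time moved the Mt3 value only between -2.16 and -2.07.

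Mt4, the metallothionein of squamous epithelium, differed far less. Mt4 (ENSMUSG00000031757) was at 11.7 RPKM in both control libraries and at 8.65 and 9.55 RPKM after Hnrnpk siRNA. The groups did not overlap, and the means of 11.7 ± 0.0337 and 9.10 ± 0.636 RPKM (SD, n = 2 per group) gave a log2 change of -0.35 (SE 0.0753). Mt4 was measured on the fewest reads of the group, an estimated 381 to 580 units per library at a transcript length of 398 bases, where a unit is a read or a read pair.

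Mtf1, the regulator, showed no difference beyond the spread of its replicates. Mtf1 (ENSMUSG00000028890) was at 7.24 and 6.50 RPKM with control siRNA, against 6.86 and 6.59 RPKM with Hnrnpk siRNA, so that the Hnrnpk siRNA values fell between the control values. The means were 6.87 ± 0.527 and 6.73 ± 0.186 RPKM (SD, n = 2 per group), and the log2 change of -0.027 (SE 0.0814) changed sign with the processing. The activity of MTF1 protein was not measured.

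Slc30a1, the exporter, followed the direction of Mt1 and Mt2. Slc30a1 (ENSMUSG00000037434) was at 7.71 and 9.95 RPKM with control siRNA, against 12.9 and 12.8 RPKM with Hnrnpk siRNA. Both Hnrnpk siRNA libraries lay above both controls, with means of 8.83 ± 1.58 and 12.8 ± 0.0501 RPKM (SD, n = 2 per group), a ratio of 1.45 and a log2 change of 0.53 (SE 0.105). As for Mt1 and Mt2, control replicate 2 was the higher control, by 0.35 on the log2 scale, a gap wider than in 96.2% of genes. The Slc30a1 log2 change was 0.35 without control replicate 1 and 0.70 without control replicate 2.

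**Figure D2:**
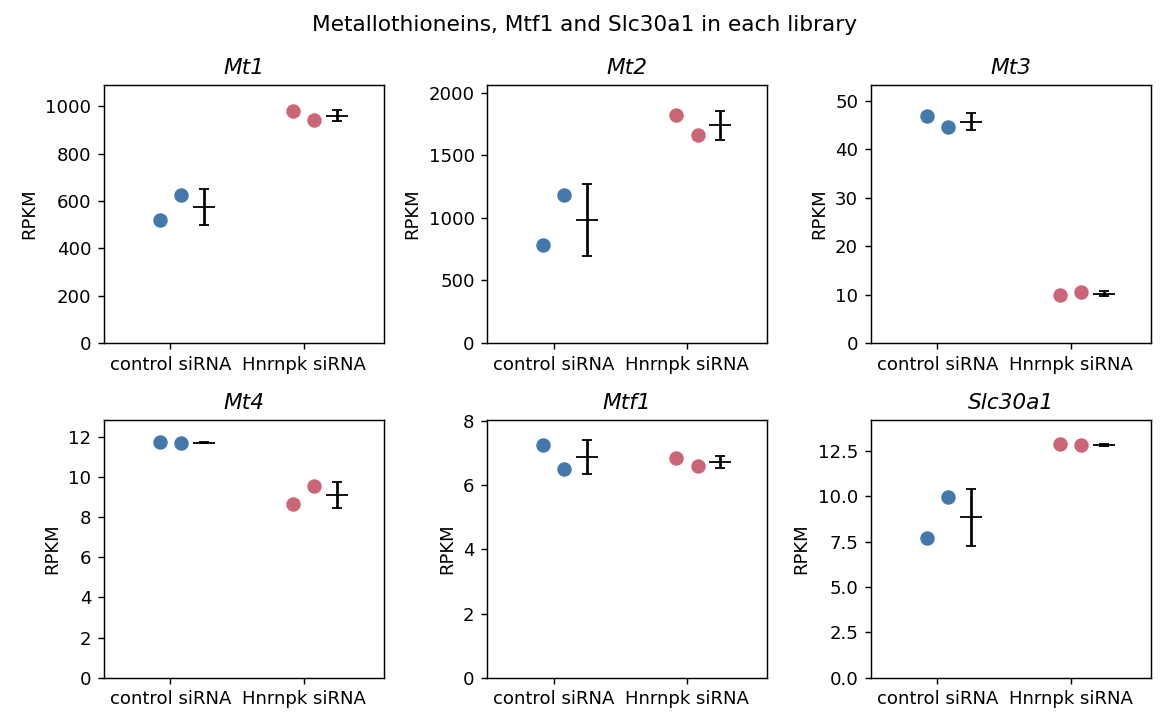
RPKM of the 6 genes in each library (points; 2 control siRNA libraries in blue, 2 Hnrnpk siRNA libraries in red), with the group mean and SD as a bar beside them; each vertical axis starts at 0. The groups are apart for Mt1, Mt2, Mt3, Mt4 and Slc30a1, and the Hnrnpk siRNA values of Mtf1 (6.86 and 6.59 RPKM) lie between its control values.

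Beside all genes, the group was as follows. All 6 genes passed the filter of a mean of 0.5 RPKM. In 5 of them the libraries of the groups did not overlap, as was so for 84.7% of the 12486 genes fitted. In the limma fit 3 were past an adjusted p of 0.05 in the higher direction and 2 in the lower, where 32.2% and 35.0% of all genes were (67.2% in either direction). Since the genes were chosen with these values known, nothing is read from those counts.

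The order of the levels changed with the knockdown only below Mt2 and Mt1. In the control libraries the order by mean RPKM was Mt2, Mt1, Mt3, Mt4, Slc30a1 and Mtf1, and no 2 neighbours in it overlapped in their libraries. Slc30a1 and Mtf1 came closest, at 7.71 RPKM in the lower Slc30a1 library and 7.24 RPKM in the higher Mtf1 library. After Hnrnpk siRNA the order was Mt2, Mt1, Slc30a1, Mt3, Mt4 and Mtf1. Mt3 and Mt4 then lay side by side, with 9.82 RPKM in the lower Mt3 library and 9.55 RPKM in the higher Mt4 library.

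The make-up of the metallothionein signal shifted accordingly. The 4 metallothioneins summed to 1360 and 1869 RPKM in the control libraries and to 2814 and 2621 RPKM after Hnrnpk siRNA. Mt2 and Mt1 gave nearly all of that sum in each library. The share of Mt3 was 3.45% and 2.38% in the control libraries and 0.349% and 0.402% after Hnrnpk siRNA. The ratio of Mt3 to Mt4 was 4.01 and 3.82 in the control libraries and 1.13 and 1.10 after Hnrnpk siRNA. The ratio of Mt2 to Mt1 was 1.501 in control replicate 1 and 1.89, 1.86 and 1.76 in the other libraries, so it set control replicate 1 apart rather than the groups. These ratios compare RPKM values and depend on the transcript lengths behind the authors' values, which no label or header states.

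The 4 metallothionein genes lie side by side on the plus strand within 43.1 kilobases of chromosome 8 (GRCm38, from 94137197 to 94180327, by GENCODE M21). The order is Mt4, Mt3, Mt2, Mt1, all protein coding. Mt3 and Mt4, at one end, were lower after Hnrnpk siRNA, and Mt2 and Mt1, at the other, were higher. Mtf1 lies on chromosome 4 (124802104 to 124849800) and Slc30a1 on chromosome 1 (191906767 to 191913247), both on the plus strand. For 3 genes of the group GENCODE also lists a transcript on the opposite strand. The longest Mt2 transcript shares 355 of its 511 bases with Gm45774, that of Mtf1 721 of 7631 bases with 1110065P20Rik, and that of Slc30a1 469 of 5244 bases with 1700034H15Rik. Whether the counting used strand is not given, so reads from such pairs cannot be told apart. 1700034H15Rik was at 0.353 RPKM or below in all libraries, and 1110065P20Rik at 8.89 to 10.9 RPKM. No value was found under the symbol Gm45774, so its part in the Mt2 reads could not be checked.

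The neighbours of the cluster that are given here had log2 changes between -0.39 and 0.58, beside a median of -0.015 over all 12486 genes. Ogfod1, an oxygenase that modifies a ribosomal protein, fell from 18.5 ± 1.53 to 14.0 ± 0.658 RPKM (SD, n = 2 per group), a log2 change of -0.39 (limma adjusted p = 0.00156). Nup93, a nuclear pore protein and the nearest of the listed genes beyond Mt1, had a log2 change of -0.17 (limma adjusted p = 0.0370), a call lost whichever of the 4 libraries was left out. Bbs2, the nearest beyond Mt4, was at 13.5 ± 0.206 and 15.1 ± 0.207 RPKM (SD, n = 2 per group). It was not called (log2 change 0.15, limma adjusted p = 0.0662), though it was under some alternatives, such as with the trend on GC content removed. Herpud1, a factor of endoplasmic reticulum stress, was at 13.1 and 23.1 RPKM with control siRNA, against 25.4 and 27.1 RPKM with Hnrnpk siRNA. Its log2 change of 0.58 (limma adjusted p = 0.0243) was 0.18 without control replicate 1 (adjusted p = 0.0642).

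**Figure D3:**
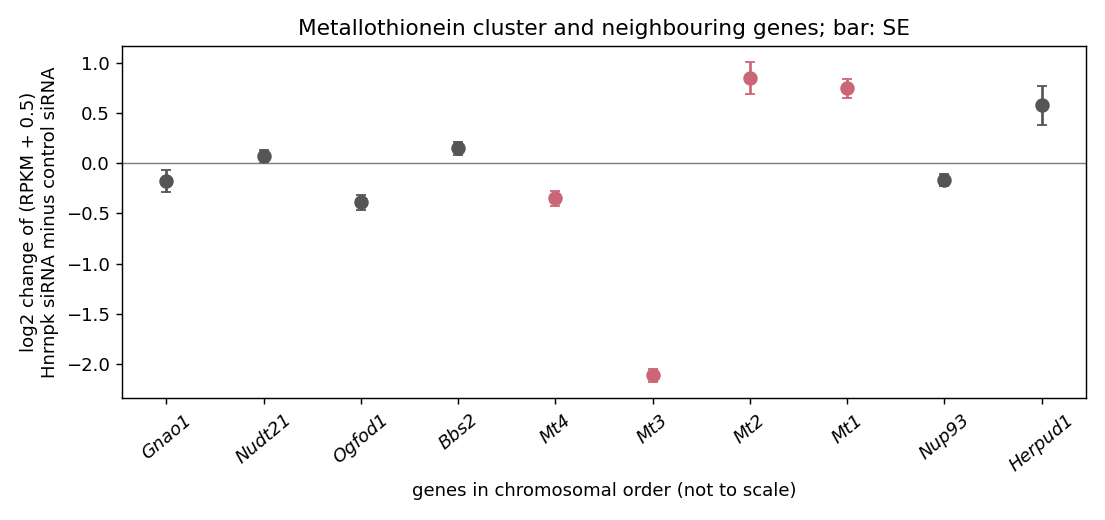
Log2 change of (RPKM + 0.5), Hnrnpk siRNA minus control siRNA, for the metallothioneins (red) and 6 of their neighbours (grey) in chromosomal order, not to scale; bars are SE. Mt3 stands at -2.12 and Mt2 at 0.85, while the neighbours drawn lie between -0.39 and 0.58.

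The profiles most like those of Mt1, Mt2 and Mt3 were ranked over the 4 libraries by the root mean square difference of centred log2 values. With so few libraries this likeness mostly says that the group difference and the gap between replicates were of similar size. For Mt1 the nearest genes were Syde1, Trim44, Fam13b, Gm13151 and Itga5, with differences of 0.011 to 0.034. For Mt2 they were Gm10324, Ifrd1, Thbs1, Ttc8 and Vegfc, with differences of 0.051 to 0.11. For Mt3 they were C1ql1, Foxk2, Gm7964, Lphn1 and Tubb4, with differences of 0.069 to 0.10; Foxk2, for example, was at 40.7 and 34.3 RPKM with control siRNA, against 8.14 and 7.94 RPKM with Hnrnpk siRNA. Within the group, Mt1 was the gene of rank 25 in likeness to Mt2, and Slc30a1 that of rank 162. In likeness to Mt1, Mt2 ranked 536 and Slc30a1 375. Mt3 ranked 12475 in likeness to Mt2.

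Zinc also enters and leaves the cytosol through 2 families of transporters. Most Slc30a (ZnT) proteins carry it out of the cytosol, into vesicles or across the plasma membrane, and the Slc39a (ZIP) proteins carry it in. Exporter and importer name the family here, not a measured direction of transport. Beside Slc30a1, 23 such genes were examined; 18 were tested, and 5 others stayed at 0.442 RPKM or below in every library. Limma called 5 of the 18 higher and 7 lower, and the median log2 change was -0.010 against -0.015 for all genes tested. Over all genes tested 32.2% were called higher and 35.0% lower, 67.2% together, and the 12 called transporters of 18 are near that share.

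Among the 7 tested exporters besides Slc30a1, 3 were called higher and 2 lower, where 32.2% and 35.0% of all genes were. Slc30a2, which fills vesicles with zinc, was at 6.54 and 7.30 RPKM with control siRNA, against 16.3 and 16.4 RPKM with Hnrnpk siRNA. That is a ratio of 2.36 without overlap (log2 change of 1.18 with SE 0.0762, limma adjusted p = 1.46e-06). Slc30a3, which loads zinc into synaptic vesicles of neurons, fell from 2.27 ± 0.338 to 0.864 ± 0.0237 RPKM (SD, n = 2 per group), a log2 change of -1.01 (limma adjusted p = 2.57e-05). Slc30a9 fell from 5.51 ± 0.328 to 3.04 ± 0.0427 RPKM (SD, n = 2 per group), a log2 change of -0.76 (limma adjusted p = 3.35e-05). Slc30a4 rose from 2.32 ± 0.0116 to 3.45 ± 0.0871 RPKM (SD, n = 2 per group), a log2 change of 0.49 (limma adjusted p = 0.000608). Unlike Mt2 and Slc30a1, Slc30a2 kept a log2 change between 1.11 and 1.26 under all alternatives tried.

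Among the 11 tested importers, 2 were called higher and 5 lower, where 32.2% and 35.0% of all genes were. With so few genes, nothing is read from the split between exporters and importers. Slc39a4, the importer of dietary zinc in the gut, whose loss of function causes acrodermatitis enteropathica, was at 17.2 and 16.5 RPKM with control siRNA, against 47.4 and 48.9 RPKM with Hnrnpk siRNA. It had the widest change of the transporters tested, a ratio of 2.86 (log2 change of 1.49 with SE 0.0630, limma adjusted p = 1.40e-07). Slc39a9 rose from 7.91 ± 0.0695 to 12.9 ± 0.130 RPKM (SD, n = 2 per group), a log2 change of 0.67 (limma adjusted p = 2.44e-05). Slc39a14, an importer of zinc and of iron and manganese, fell from 17.6 ± 1.83 to 12.4 ± 0.112 RPKM (SD, n = 2 per group), a log2 change of -0.48 (limma adjusted p = 0.000545). Slc39a13 fell from 2.32 ± 0.124 to 1.54 ± 0.0624 RPKM (SD, n = 2 per group), a log2 change of -0.46 (limma adjusted p = 0.00132), a value that was -0.29 with the trend on GC content removed. The most abundant importer, Slc39a7, which releases zinc from the endoplasmic reticulum, was not called, at 54.8 ± 0.990 and 58.1 ± 5.91 RPKM (SD, n = 2 per group). With the trend on GC content removed Slc39a7 was called higher, at a log2 change of 0.20.

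**Figure D4:**
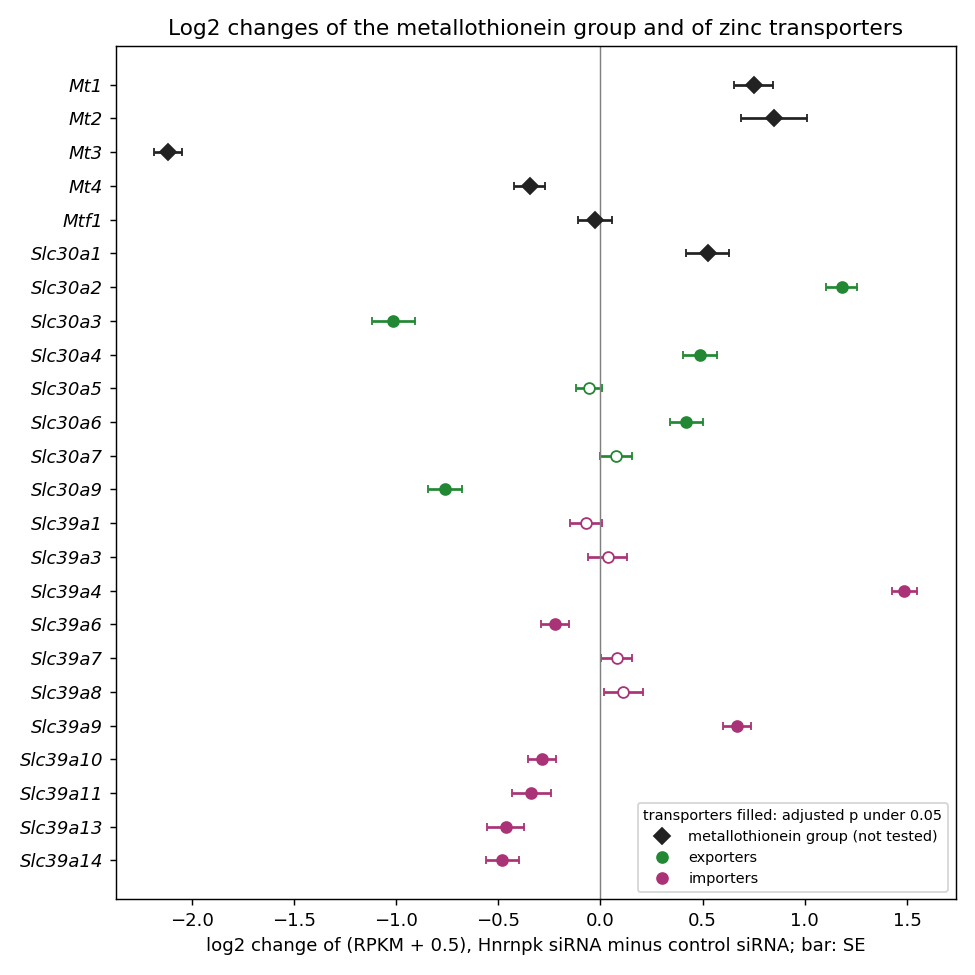
Log2 change of (RPKM + 0.5), Hnrnpk siRNA minus control siRNA, with SE as bars, for the 6 genes of the group (black diamonds, no test given), 7 other zinc exporters (green) and 11 zinc importers (purple); transporters with filled circles had a limma adjusted p under 0.05. Mt3 (-2.12) and Slc39a4 (1.49) lie farthest from 0.

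Matches to the core of the metal response element were counted in the transporters' promoter windows as well. RefSeq held windows for 4 of the 5 transporters that rose, and 2 of these genes had a match, namely Slc30a2 with 2 and Slc30a4 with 3. Of the 5 fallen transporters with a window 3 had a match, and of the 6 uncalled ones 3 had. Over all 26994 symbols with a window, 28.2% had a match in at least 1 window.

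A short list of other genes reported as MTF1 targets was examined too. Of the 7 in the table, limma called 5 higher and 1 lower, with a median log2 change of 0.30 against -0.015 for all genes tested, of which 32.2% were called higher and 35.0% lower. Hmox1, the heme-degrading enzyme and a target of several stress factors, was at 80.9 and 96.4 RPKM with control siRNA, against 329 and 355 RPKM with Hnrnpk siRNA. Its ratio was 3.86 (log2 change of 1.95 with SE 0.0879, limma adjusted p = 1.95e-07). Sepw1, a small selenoprotein now called Selenow, was at 92.5 and 137 RPKM with control siRNA, against 206 and 228 RPKM with Hnrnpk siRNA (log2 change 0.94, limma adjusted p = 0.000360). Its control libraries differed like those of Mt2, by 0.57 on the log2 scale, and its change was 0.66 without control replicate 1 and 1.22 without control replicate 2. Slc40a1, the iron exporter ferroportin, rose from 0.826 ± 0.0768 to 1.30 ± 0.0169 RPKM (SD, n = 2 per group), a log2 change of 0.44 (limma adjusted p = 0.00238). Slc39a10, an importer that MTF1 is reported to repress, fell from 45.5 ± 3.21 to 37.2 ± 0.953 RPKM (SD, n = 2 per group). Its log2 change was -0.29 (limma adjusted p = 0.00470), and it is also counted among the zinc transporters called lower. Whether MTF1 had a part in any of these differences was not tested. Without Hnrnpk siRNA replicate 2 the list had 3 genes called higher.

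Copper, the other metal that metallothioneins bind, was followed through 11 genes for its uptake and delivery. Limma called 4 higher and 2 lower, with a median log2 change of -0.0041; over all genes 67.2% were called in either direction, a larger share than of this list. Without control replicate 1 or without either Hnrnpk siRNA library some of these calls were lost (3 to 4 higher and 0 to 3 lower over the 4 omissions). Sco2 and Sco1, which bring copper to cytochrome oxidase, rose with log2 changes of 0.70 and 0.41 (limma adjusted p = 4.05e-05 and 0.000478). Atp7a, a copper-exporting pump, rose from 2.10 ± 0.0643 to 3.02 ± 0.226 RPKM (SD, n = 2 per group), a log2 change of 0.44 (limma adjusted p = 0.00180). Slc31a2 had a log2 change of 0.33 (limma adjusted p = 0.00702), a call lost without Hnrnpk siRNA replicate 1 (adjusted p = 0.0654). Sod1, the copper and zinc superoxide dismutase, was among the uncalled genes, at 757 ± 46.6 and 774 ± 62.7 RPKM (SD, n = 2 per group).

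Glucocorticoids induce Mt1 and Mt2, so the receptor and 6 of its reported targets were listed. Of the 6 genes tested limma called 3 higher and 2 lower, with a median log2 change of 0.17, where 32.2% of all genes were called higher and 35.0% lower. Nr3c1, the receptor, rose from 2.30 ± 0.137 to 4.003 ± 0.255 RPKM (SD, n = 2 per group), a log2 change of 0.69 (limma adjusted p = 0.000103). Fkbp5, a chaperone of the receptor and a common read-out of its activity, fell from 28.3 ± 0.199 to 13.6 ± 0.379 RPKM (SD, n = 2 per group), a log2 change of -1.04 (limma adjusted p = 1.18e-06). Sgk1, a kinase, fell from 153 ± 12.7 to 96.5 ± 2.37 RPKM (SD, n = 2 per group), a log2 change of -0.66 (limma adjusted p = 3.55e-05). Tsc22d3 had a log2 change of 0.35 (limma adjusted p = 0.00630), a call lost without either Hnrnpk siRNA library. Per1, a clock gene, also rose (log2 change 0.25, limma adjusted p = 0.00726), by 0.42 with the trend on GC content removed, and its call was lost without Hnrnpk siRNA replicate 1 (adjusted p = 0.0598). The receptor, Tsc22d3 and Per1 were thus called higher and Fkbp5 and Sgk1 lower, and 1 to 3 genes were called higher when 1 library was left out.

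Because Mt3 and Mt4 are known from other cell types, markers of those cells were examined. Of 7 neural markers 5 were in the table; they summed to 101 and 113 RPKM in the control libraries and to 83.2 and 93.6 RPKM after Hnrnpk siRNA. Nearly all of that was the tubulin gene Tubb3, which fell together with Pax6 (log2 changes -0.26 and -0.41, limma adjusted p = 0.0158 and 0.00418), the 2 markers tested. Gfap, Snap25 and Slc1a2 were at or below 0.658 RPKM in every library. The 6 squamous markers summed to 1.96 and 1.97 RPKM in the control libraries and to 2.61 and 2.94 RPKM after Hnrnpk siRNA, and Krt5, Krt13, Krt4 and Trp63 were each at a mean of 0.208 RPKM or below. The 5 fibroblast markers summed to 9.64 and 8.11 RPKM in the control libraries and to 4.85 and 5.15 RPKM after Hnrnpk siRNA, with Col1a2 and Col3a1 at or below 0.0791 RPKM. Thy1 and Col1a1 fell (log2 changes -1.24 and -0.42), while Pdgfra rose from 0.170 ± 0.0301 to 0.898 ± 0.0890 RPKM (SD, n = 2 per group), a log2 change of 1.06 (limma adjusted p = 1.63e-05). Both Mt3 and the neural sum were lower after Hnrnpk siRNA, with log2 changes of -2.12 for Mt3 and -0.26 for Tubb3. Gfap, Snap25 and Slc1a2, all under the filter, also had lower means, at 0.501, 0.425 and 0.523 of control. The Slc1a2 libraries overlapped between the groups. Mt4 was lower too, while the squamous sum was higher. Krt10, the 1 squamous marker tested, was called higher (log2 change 0.25, limma adjusted p = 0.0382). Of all genes tested, 32.2% were called higher and 35.0% lower, so nothing is read from the calls of these markers. The part of such cells in the Mt3 and Mt4 differences was not tested.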

How the data were processed

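RNA was sequenced from 4 libraries of TT2 cells, 2 per group. The authors deposited RPKM per gene in 1 table with a column per library; per the submitters' processing notes BWA, SAMtools and the mm9 build were used, with no role or version. No source used here gives the counting tool, the annotation, the strand setting or how multiply mapped reads were treated. The labels name both rRNA depletion and poly(A) selection. Positions and transcript lengths come from GENCODE M21 on GRCm38 (20551 of 22138 identifiers, 92.8%, were found), another build than the authors'.

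Values were analysed as log2(RPKM + 0.5), which understates changes of low genes, for the 12486 genes whose mean reached 0.5 RPKM. Groups were compared by limma 3.58.1 in R 4.3.3 (mean-variance trend, two-sided moderated test, 7.47 prior degrees of freedom, Benjamini-Hochberg over those genes, threshold 0.05). The procedure was also run on simulated data with far fewer genes changed than were called here, so that run does not check the calls made here. An exact permutation test of 2 against 2 cannot go below 0.333, so calls rest on the variance pooled across genes. The 6 genes and the lists were chosen with earlier results of these data known, and p-values are not adjusted over a list alone. Named genes are the 6, Hnrnpk, up to 4 called genes of each list with the lowest p, some uncalled genes by value, and the 5 genes nearest in profile to Mt1, Mt2 and Mt3; Slc30a4, Slc30a9, Slc39a13, Slc39a14, Per1 and the markers named were chosen after their values were seen. Cetp, Sox1 and Map2 were not analysed here, and 1 tested neighbour of the cluster is not reported here.

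Low values were searched for the worth of 1 read. With the lengths of single-exon genes, only 28.3% to 29.5% of the values came within 0.02 of whole reads, so counts could not be recovered; the commonest step gave the relative depth and about 110000000 to 124000000 units (reads or read pairs) per library. Shared sequence was sought with BLAST 2.17.0 (minimum 95% identity, 50 bases). Alternatives changed the added constant, the filter, the scaling, trends on GC content and length, the variance trend, a replicate block and the libraries used.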

Additional observations from a re-analysis of the deposited data

How the results depend on the processing

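Over 14 alternatives, Mt1, Mt2, Mt3, Mt4 and Slc30a1 kept their direction. The Mtf1 log2 change, -0.027, became 0.015 under quantile normalization, 0.053 with the trend on length removed and 0.046 without control replicate 1, and over the omissions of 1 library it ran from -0.10 to 0.046; the cause was not tested. Quantile normalization lowered Mt1 to 0.49 and Mt2 to 0.52, and the omission of control replicate 1 lowered Mt2 to 0.55. Over all genes 3101 to 4760 were called higher and 3577 to 4900 lower, and of the zinc transporters 5 to 6 higher and 5 to 7 lower. Where 1 library was left out, the lone library of its group was assumed to vary like the others. Over such omissions 3 to 5 of the MTF1 targets and 1 to 3 of the glucocorticoid genes were called higher. Same-numbered replicates did not deviate together (correlation 0.027 over genes), so no shared replicate effect was visible. Whether same-numbered libraries were handled together is not stated and cannot be settled by this correlation. With a replicate block 4162 genes were called higher and 4460 lower, and the log2 changes of the 6 genes stayed as they were (Mt1 0.75, Mt2 0.85, Mt3 -2.12, Mt4 -0.35, Mtf1 -0.027, Slc30a1 0.53); of the zinc transporters 5 were called higher and 7 lower. Mt4 had the fewest estimated units of the 6 genes, at 381 to 580, though its SE of 0.0753 was below those of Mt1, Mt2, Mtf1 and Slc30a1.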
